A study of Culex quinquefasciatus with 7 samples.

Results

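The 58 genes described here had their highest level 36, 48 or 60 h after emergence of the adult and stood at least 2-fold lower, in log2(FPKM + 1), at both ends of the series. They were taken from whole adult females of Culex quinquefasciatus, the southern house mosquito, and from 20305 genes in all, of which 11837 averaged at least 1 FPKM, and the rule kept 0.49% of those 11837. Messenger RNA was sequenced at 2, 12, 24, 36, 48, 60 and 72 h after eclosion, in 1 library per time, each made from 200 pooled females. The photoperiod was 12 h of light to 12 h of dark. FPKM, a fragment count divided by gene length and by the library's mapped fragments, gives a transcript's share of the library. A lower share can come from fewer cells of a type, from less RNA per cell or from more RNA of other genes. In whole bodies these cannot be told apart.

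The members were chosen by the measured values. On the scale L = log2(FPKM + 1), a gene needed to average at least 1 FPKM and to have its highest library at 36, 48 or 60 h with at least 5 FPKM there. It also needed L at that peak at least 1 above L at 2 h and at least 1 above L at 72 h, and values of L at 2 and 72 h less than 2 apart. The peak time, the low ends and the size of the peak are thus fixed by the choice and are given as description. Each time rests on 1 library, so single values carry no replicate error and no test was made.

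Between emergence and the first blood meal, a female mosquito completes her adult body: the cuticle hardens, the gut and fat body mature, and the ovarian follicles grow to a resting stage under juvenile hormone. Mosquitoes also have a circadian clock, set by light, through which many mRNAs have levels that differ between day and night. The files pair no identifier with a gene name, and none of the 20305 (0 matches) was found among the 18458 genes of the RefSeq table at hand, so what these genes encode is not stated. The whole-body, female label could not be checked against marker genes for the same reason.

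The libraries differed as a whole. The low values, which lie on steps of whole fragments, put the 36, 48 and 60 h libraries at 0.798, 0.831 and 0.744 of the depth of the 2 h library, and the 72 h library at 1.19. The 3 libraries that hold the peaks were therefore the shallowest, and the number of fragments behind a value is unknown. Over genes at 10 FPKM or more throughout, the median ratio to their geometric mean was 0.772 at 2 h and 1.15 at 72 h, and between 0.919 and 1.10 in the other libraries. Counts that depend on this shift are given again after rescaling by it.

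The peak library was 36 h for 26 of the 58 genes, 48 h for 10 and 60 h for 22. Peak levels ran from 5.04 to 445 FPKM with a median of 10.1 FPKM. A peak of at least 10 FPKM was reached by 30 genes, and one of at least 100 FPKM by 7. The median difference of L between the peak and 2 h was 2.14, with a range of 1.16 to 3.41, and the median difference between 72 h and the peak was -1.35, with a range of -3.33 to -1.01. All members together held 0.121, 0.298, 0.206, 0.474, 0.357, 0.411 and 0.171% of the summed FPKM of the successive libraries. Their summed share was therefore not a single hump: it was higher at 12 h than at 24 h, and higher at 36 and 60 h than at 48 h. A sum weighs abundant genes most, and not every member had this order. From 12 to 24 h, 36 members were lower and 22 higher. From 36 to 48 h, 41 were lower and 17 higher, and from 48 to 60 h, 43 were higher and 15 lower.

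The rule cut through a continuous range. The members closest to the required margin of 1 over the higher end had margins of 1.01, 1.02 and 1.04, and the closest genes left out had 0.997, 0.977 and 0.971. Between margins of 0.9 and 1 lay 25 genes left out, and between 1 and 1.1 lay 10 members. The lowest peak kept was 5.04 FPKM and the highest left out was 4.99 FPKM, among 24 genes that met all else. The members with the widest apart ends had values of L at 2 and 72 h that differed by 1.94 and 1.91, and the nearest of the 14 genes left out for this differed by 2.22.

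The 2 members with the largest increase from 2 h to the peak, among those reaching 10 FPKM, each had 1 library more than 2-fold above the rest. CPIJ009658 had values of 3.00, 10.2, 13.1, 12.1, 19.6, 41.5 and 6.73 FPKM across the series, a log2 difference of 3.41 between 60 and 2 h. It was about level from 12 to 36 h, and its 60 h value was more than 2-fold above all the others. CPIJ006495 ran through 0.302, 2.27, 1.48, 1.14, 11.6, 1.79 and 1.93 FPKM from the first library to the last, a log2 difference of 3.27 between 48 and 2 h. Its peak was the 48 h library alone, with 36 and 60 h at 9.85% and 15.5% of it.

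The 2 members with the largest decrease from the peak to 72 h were of different kinds. CPIJ015506 had 3.57, 11.9, 12.9 and 17.5 FPKM up to 36 h, was listed at 0 at 48 h, and had 19.5 and 1.03 FPKM in the libraries after that. The log2 difference between 72 and 60 h was -3.33. CPIJ015028 stood at 67.7, 68.8, 132, 91.5, 169, 30.1 and 22.6 FPKM in the libraries from 2 to 72 h, with a log2 difference of -2.85 between 72 and 48 h. It was high from emergence on, and its 2 latest libraries were its lowest.

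The members fell into 4 shapes, which were set after their values were seen. In 28 genes the libraries at 12, 36 and 60 h each stood above both neighbouring libraries, including 2 and 72 h, an order called alternating here. In 11 genes the 48 h library stood below 10% of both the 36 h and the 60 h value, called a gap here, and 9 of these were also alternating. This leaves 19 alternating genes without a gap, 11 genes with a gap, 10 genes that peaked at 48 h and 18 further genes that peaked at 36 or 60 h.

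**Figure D1:**
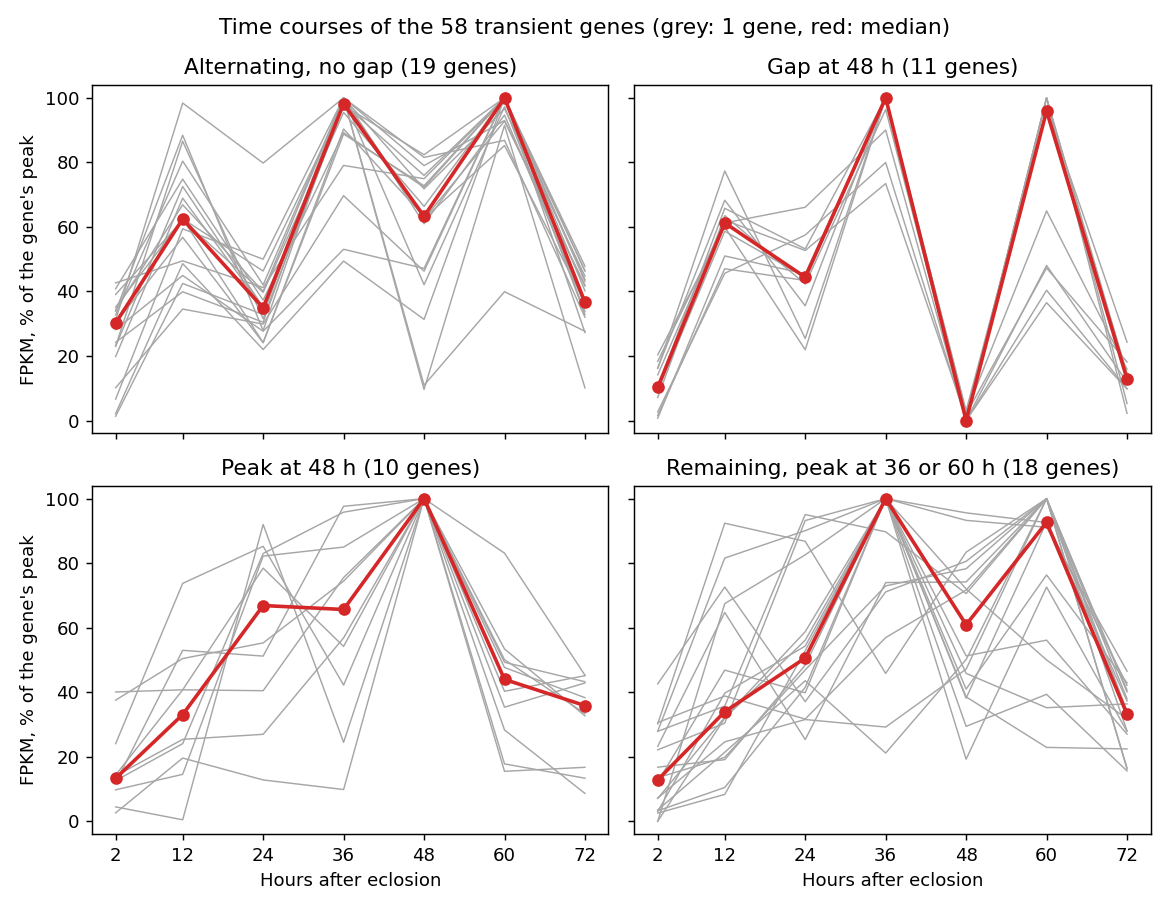
Level of each of the 58 genes in percent of its own peak (y axis, from FPKM) against hours after eclosion (x axis), in panels by shape, with 1 grey line per gene and the median in red. The median of the 19 alternating genes is 62.5% at 12 h against 34.9% at 24 h, and 63.3% at 48 h, and that of the 11 genes with a gap is 0 at 48 h.

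**Figure D2:**
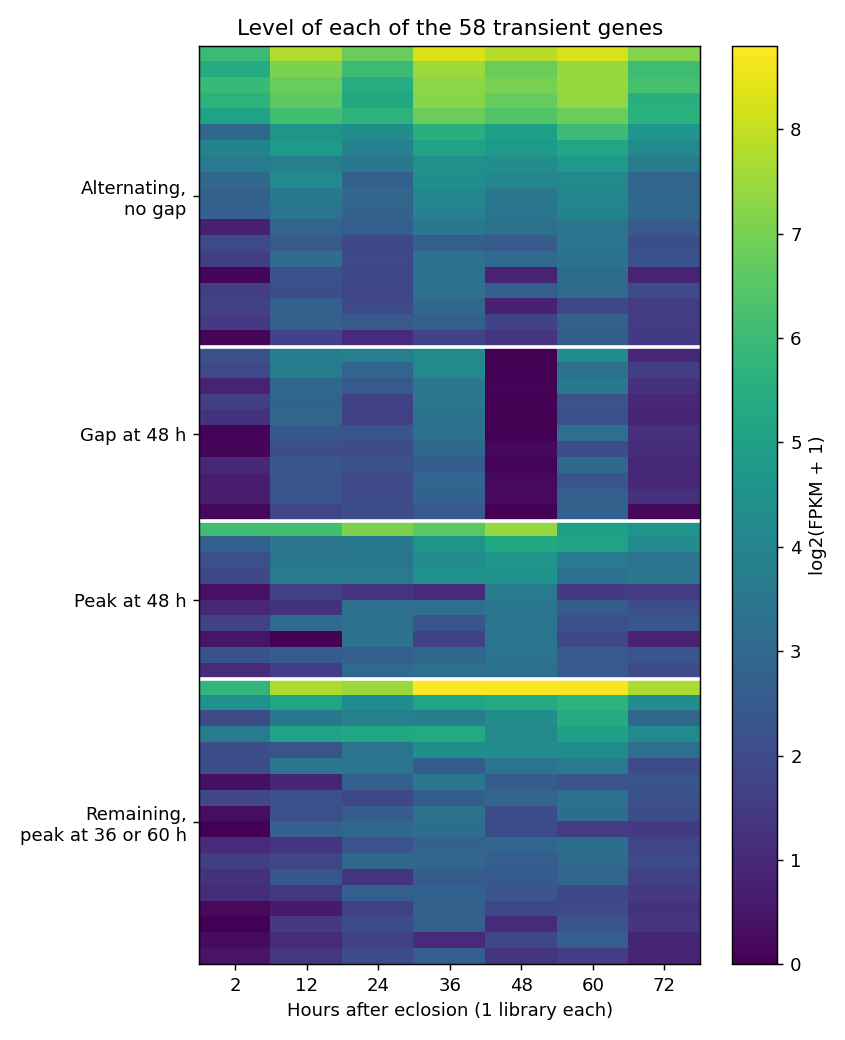
Level of the 58 genes as log2(FPKM + 1) (colour), 1 row per gene and 1 column per library in hours after eclosion, grouped by shape and ordered by peak level within each group. The genes with a gap are dark at 48 h between lighter columns at 36 and 60 h.

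Alternating genes were 28 of 58, against 4.22% of the 11837 genes. After rescaling the counts were 31 of 58 against 6.59%, and 27 genes alternated under both scalings. Part of this order is set by the choice, since a peak at 36 or 60 h places at least 1 of these libraries above its neighbours and the ends are low. The order of 12 and 24 h enters the rule only through the mean and through both being below the peak: 12 h stood above 24 h in 33 of the 48 genes that peaked at 36 or 60 h, against 30.7% of all genes. After rescaling it did so in 35 of 48, against 45.2% of all genes. Among the 26 genes peaking at 36 h the count was 17, and among the 22 peaking at 60 h it was 16. Without the genes with a gap it was 24 of 37.

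The libraries at 12, 36 and 60 h were taken 24 h apart and would share a phase of the photoperiod provided that every pool emerged at one clock hour. The sources used here do not give the hour of lights-on, and whether the order follows the time of day was not tested. The same 7 libraries serve every gene, so the genes are not independent observations of this order.

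The alternating order was also found at high levels. Of the 9 members with a peak of at least 50 FPKM, 6 were alternating and 0 had a gap, against 28 and 11 of all 58. Of these 9, 3 peaked at 36 h and 5 at 60 h, which sets part of the order. The alternating gene with the highest level had values of 63.7, 221, 112, 321, 230, 310 and 144 FPKM across the series. The next ran through 42.05, 132, 64.2, 183, 111, 173 and 65.5 FPKM from the first library to the last. In both genes the dip at 24 h was deeper than the one at 48 h, and 36 h was slightly above 60 h.

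A gene with a 60 h peak stood at 61.3, 109, 42.2, 155, 127, 174 and 75.2 FPKM in the libraries from 2 to 72 h. Another had values of 50.004, 93.9, 39.8, 149, 105, 165 and 45.1 FPKM across the series. In both, 24 h was the lowest library of the series, below 2 h. Among the 19 alternating genes without a gap, the median level in percent of the peak was 30.2, 62.5, 34.9, 98.2, 63.3, 100 and 36.6% in time order. Over all 28 alternating genes, 98 of the 140 steps from 12 to 72 h were at least 1.5-fold on the scale of L. The step into 36 h reached this size in 26 genes and the step into 72 h in 27; the low 72 h value is part of the rule. The steps into 24, 48 and 60 h reached it in 13, 15 and 17 genes. In 4 genes every step did. These counts include the 9 alternating genes with a gap, whose steps into 48 and 60 h are at least 1.5-fold by the definition of a gap. The dip at 48 h in the other alternating genes is thus weaker than these counts.

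**Figure D3:**
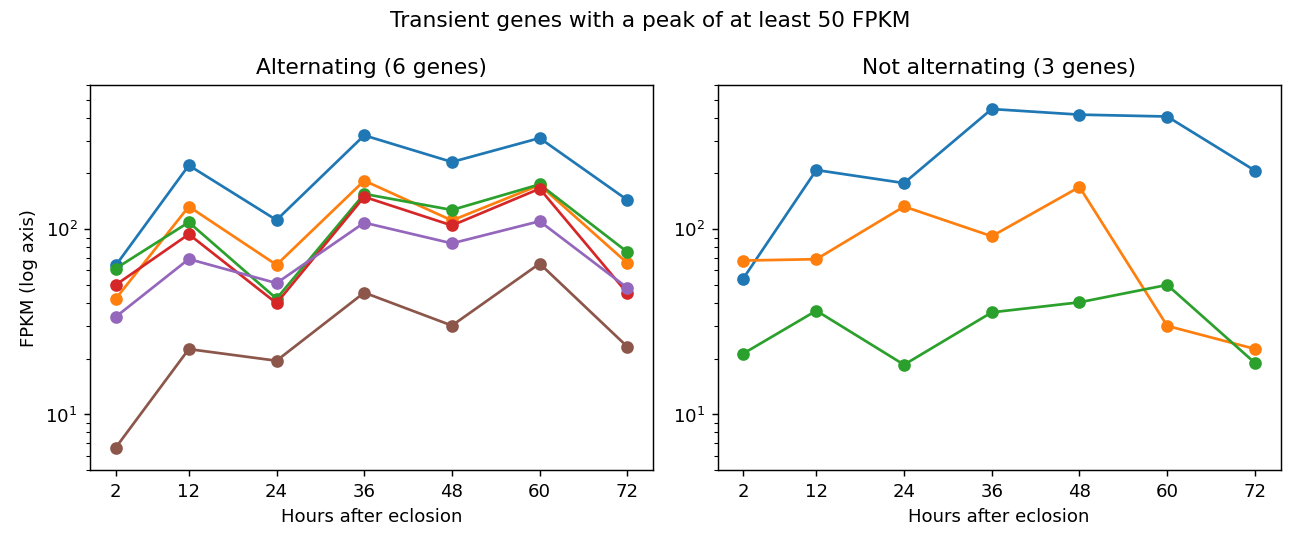
FPKM (y axis, log scale) against hours after eclosion (x axis) of the 9 genes with a peak of at least 50 FPKM, 1 line per gene; colours only separate the lines. The 6 alternating genes (left) are lower at 24 h and 48 h than in the libraries before and after, while the gene with the highest level on the right is level from 36 to 60 h.

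The member with the highest level of all was not alternating. It ran through 54.2, 208, 177, 445, 415, 405 and 207 FPKM from the first library to the last. Its 3 libraries from 36 to 60 h lay close together, and it went back at 72 h to the level it had at 12 h. Over all members, 29 of the 58 genes were within 2-fold of their peak, on the scale of L, in all 3 libraries from 36 to 60 h, 20 in 2 of them and 9 in the peak library alone. Among all 11837 genes, 85.6% had these 3 libraries within 2-fold of their highest value. The 29 include 15 alternating genes, whose dip at 48 h was thus less than 2-fold, besides 4 that peaked at 48 h and 10 of the 18 further genes. Of these 9 genes, 5 had their peak at 36 h, 3 at 48 h and only 1 at 60 h.

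The 11 genes with a gap were singled out for their 48 h value, and their low 2 and 72 h values and their peak are part of the rule. Their levels at 2 h ran from 0.0628 to 3.57 FPKM (median 0.776), at 12 h from 2.60 to 12.1 (median 4.42) and at 24 h from 2.25 to 12.9 (median 3.27). At 36 h they ran from 4.55 to 17.7 FPKM (median 8.66). At 48 h, 6 of the 11 were listed at 0 and the other 5 stood between 0.0602 and 0.178 FPKM. At 60 h they were back at 3.25 to 19.5 FPKM (median 5.69), and at 72 h they ran from 0.127 to 2.10 (median 1.03). In every 1 of the 11 genes the values at 12 and 24 h stood above those at both 2 and 72 h. Over the 58 members, 46 did so at 12 h, against 16% of all genes, and 38 at 24 h. Both ends are low by the rule, so nothing is read from this.

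A listed 0 can be a failed estimate, which was not tested. Summed over the 11 genes, the level was 13.2, 65.9, 47.9, 102, 0.596, 79.9 and 12.4 FPKM in time order. The ratio of 12 to 36 h lay between 0.470 and 0.846 in these genes with a median of 0.658, against 0.0834 to 2.02 with a median of 0.669 in the other 37 genes that peaked at 36 or 60 h. The ratio of 60 to 36 h spread more, from 0.365 to 1.36 with a median of 0.960. In the other 37 genes it ran from 0.229 to 4.72 with a median of 0.973. All 11 still met the rule when the 48 h library was left out, but this was fixed in advance. Their peaks lay at 36 or 60 h, and leaving out a value near 0 can only raise the mean.

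Gaps of this depth were concentrated in the 48 h library. Among 10020 genes averaging at least 1 FPKM and with 2 FPKM or more at both 36 and 60 h, 17 genes, or 0.17%, were below 10% of both at 48 h, and 11 of them were members of this set. By the same measure against the libraries before and after, there were 0 such genes of 8211 at 12 h, 1 of 9171 at 24 h, 0 of 9771 at 36 h and 0 of 10243 at the 60 h point. A 12th member had 10.5% of its lower neighbour at 48 h, at 0.816 FPKM there against 8.46 FPKM at 36 h and 7.74 FPKM at 60 h.

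The 6 genes with a gap that were not members missed the rule mostly for their level. Of these 6, 3 missed only the minimum of 5 FPKM at the peak, 1 missed only the peak time, and the other 2 missed the minimum and 1 more condition. All 17 had their 12, 24, 36 and 60 h values above both 2 and 72 h. The depth of the 48 h library, 0.831 of the 2 h library, was above those of the 36 and 60 h libraries. What sets the 48 h library apart for these genes was not tested. Without gene names it could not be assessed whether the pools differed in content, for example through material from males, so the values of these genes may not follow age alone.

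**Figure D4:**
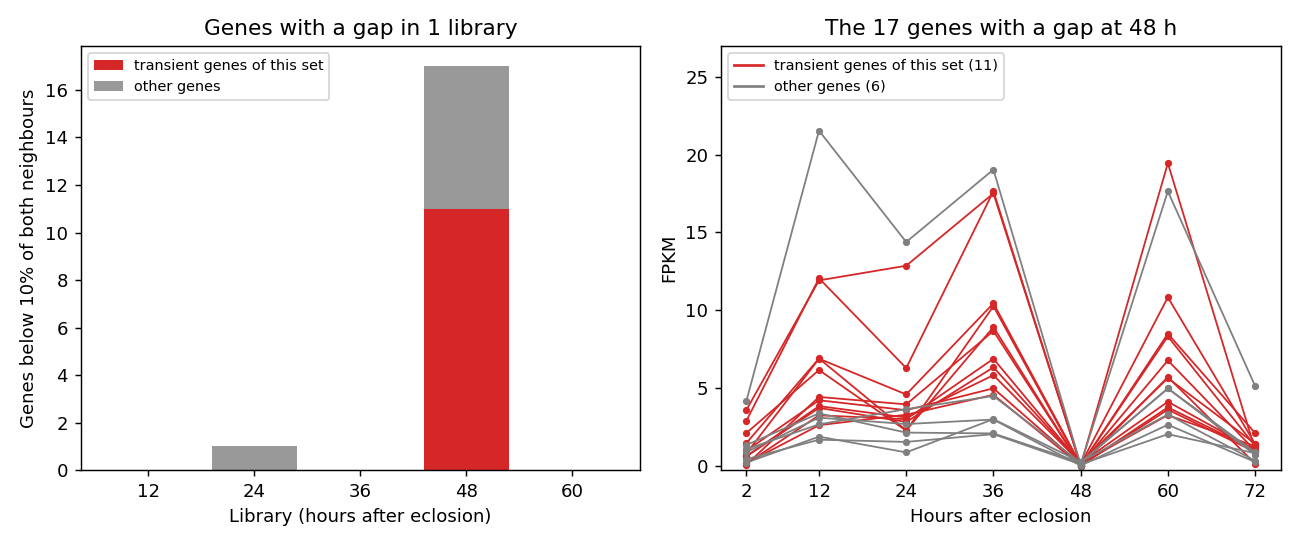
Left, number of genes (y axis) below 10% of both neighbouring libraries at each inner time in hours after eclosion (x axis), with the transient genes in red and other genes in grey. Right, FPKM against hours after eclosion for the 17 genes with a gap at 48 h, 1 line per gene: 11 transient genes in red and 6 others in grey, all near 0 at 48 h.

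The 10 genes that peaked at 48 h had 60 h values between 15.5% and 83.1% of the peak, and only 3 of them stayed above 50% at 60 h. Their median level in percent of the peak was 13.3, 33.1, 66.9 and 65.6% in the 4 libraries before the peak, and 44.0 and 35.9% in those after it. None of the 10 was alternating in the sense above, which a peak at 48 h does not allow. In 3 of them, CPIJ015028 included, 24 and 48 h each stood above both neighbours, the opposite order, against 21.6% of all genes. This share is near that of all genes, as was the count with 24 h above 12 h, 7 of 10 against 69.3%. After rescaling, 4 of 10 had 24 h above 12 h, against 54.8% of all genes.

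The clearest opposite order was in a gene of low level, with 0.424, 0.0455, 8.72, 2.32, 9.48, 2.68 and 0.819 FPKM in time order. It was the only member lower at 12 h than at 2 h. At higher level, a gene with a broad peak stood at 5.61, 10.1, 10.8, 22.7, 39.9, 33.2 and 18.1 FPKM in the libraries from 2 to 72 h, and no order of alternate libraries was seen in it.

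The 18 remaining genes, 10 with a peak at 36 h and 8 at 60 h, had a median level in percent of the peak of 12.8, 34.0, 50.6, 100, 60.9, 92.7 and 33.2% in time order. They differed among themselves. A gene with an early decline had values of 1.24, 1.70, 5.20, 5.58, 4.02, 2.79 and 1.77 FPKM across the series, one smooth hump. A gene with a late, flat top ran through 3.30, 3.76, 9.51, 19.7, 18.8, 18.2 and 8.29 FPKM from the first library to the last.

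Step by step, differences of at least 2-fold ran in both directions. From 2 to 12 h, 34 of the 58 were at least 2-fold higher on the scale of L and 0 lower, against 8.27% and 3.73% of all 11837 genes; the low 2 h value is part of the rule. From 12 to 24 h, 8 were higher and 7 lower, against 7.24% and 3.06%, and after rescaling 5 were higher and 12 lower. From 24 to 36 h, 21 were higher and 1 lower, against 1.33% and 1.14%. From 36 to 48 h, 3 were higher and 18 lower, against 0.448% and 0.6%. From 48 to 60 h, 18 were higher and 6 lower, against 0.6% and 0.397%. From 60 to 72 h, 0 were higher and 39 lower, against 0.27% and 0.819%. The counts from 24 h on include libraries that the rule used, and from 12 to 24 h all genes are not a neutral comparison, as said above. Nothing is read from the distance of these counts to all genes.

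**Figure D5:**
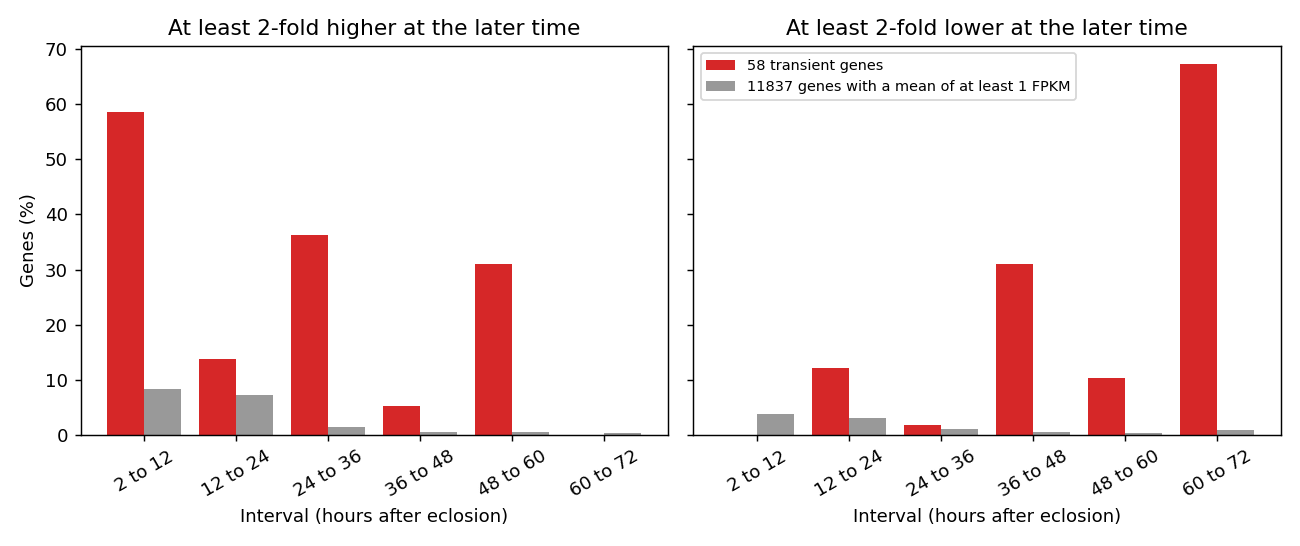
Percent of genes (y axis) at least 2-fold higher (left) or lower (right) at the later library of each interval in hours after eclosion (x axis), for the 58 transient genes in red and the 11837 genes averaging 1 FPKM or more in grey. From 60 to 72 h, 39 of the 58 genes, 67.2%, were lower.

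The first and the last step were shared most widely. At 12 h, 57 of 58 genes stood above their 2 h value, against 75.2% of all genes. After rescaling 54 of the 58 did. At 72 h, 54 stood below their 60 h value, against 29.1% of all genes. The median log2 step from 60 to 72 h was -1.10 in the members and 0.18 in all genes, and that from 2 to 12 h was 1.26 and 0.27. From 12 to 24 h it was -0.21 in the members and 0.25 in all genes. At 12 h, 46 of the 58 genes stood above both ends of the series, against 16% of all genes. Both ends are low by the rule, so nothing is read from the differences that involve 2 or 72 h. The same holds for the step from 12 to 24 h, for the reason given above.

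The members did not all return to where they began. Of the 58 genes, 47 stood at 72 h above their 2 h value and 11 below it, with a median difference of L of 0.47 and a range of -1.54 to 1.94. Among all genes 79.4% stood higher at 72 h, a share near that of the members. After rescaling, 33 of the 58 and 65.3% of all genes did so.

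Genes chosen by the same rule with another peak time were 56 for 12 h and 69 for 24 h. The 58 genes had lower peaks, with a median of 10.1 FPKM against 21.04 for the 12 h and 22.1 for the 24 h genes. More of their libraries lay within 2-fold of the peak on the scale of L, a median of 4 of the 7 against 2 and 3. The peak library alone did so in 2 of the 58, against 27 of 56 and 6 of 69. These libraries need not be neighbours, so the count does not measure the width of a peak. The 1 added to FPKM also narrows differences at low levels, and a 12 h peak borders the 2 h library, which is low by the rule. Of the 12 h genes 18 were alternating, and of the 24 h genes 0, which a peak at 24 h does not allow. A gap at 48 h was seen in 1 of the 12 h genes and 0 of the 24 h genes. Differences between these sets were not tested, since each rests on the same 7 libraries.

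Some members had neighbouring identifiers. There were 4 pairs with identifiers 1 or 2 apart, so that 8 of the 58, or 13.8%, had another member that close, against 1.14% of all 11837 genes. Both genes of each pair peaked at the same time, 36 h in 3 pairs and 60 h in 1. In 2 pairs both genes had a gap at 48 h, and in 1 more pair a gene with a gap stood beside the 12th gene with 10.5% of its lower neighbour. Positions were not used here, and how reads shared by near-identical genes were counted is not given, so the values of such pairs may depend on each other.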

How the data were processed

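Per the series' design text, the authors made the deposited values with TopHat, Cufflinks and Cuffdiff, and CASAVA 1.8 and Trimmomatic are named as well, per the submitters' processing notes. The deposited table was read as FPKM from this pipeline and from its values. Per the file headers it names only gene and hour. The sources used here do not give a genome build, an annotation, strand use or any scaling applied across libraries. The depth of each library is known only relative to the others, from the steps of values above 0 and below 0.3 FPKM.

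The members were found by the stated rule on log2(FPKM + 1) with pandas 2.3.3 and numpy 2.4.6 under Python 3.11.15, and the rule was checked on simulated data. The members and the shapes were chosen with earlier results of these data known. No name list could be built. By identifier, only the 2 largest increases and the 2 largest decreases among members reaching 10 FPKM are given; other genes are given by rank or shape and were singled out after their values were seen. Rescaling divided each library by its median ratio to the geometric mean of 2761 genes that never fell under 10 FPKM. Other alternatives were a pseudocount of 0.1, other limits and the omission of libraries.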

Additional observations from a re-analysis of the deposited data

How the results depend on the processing

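With other limits the set of 58 genes shrank by construction: to 30 with at least 10 FPKM at the peak, to 18 with a margin of 1.5 over both ends and to 38 with the ends within 1 on the log2 scale. A pseudocount of 0.1 gave 71 genes, 47 of them among the 58, and rescaling gave 65, 48 of them among the 58, with 38 shared by all 3. Without the 36, 48 or 60 h library 42, 51 and 44 of the 58 still met the rule, and 21 did so under each of these 3 omissions. A member dropped out only when its own peak library was left out, so the 3 larger counts consist mostly of genes that peaked elsewhere. Only the 21 of 58 met the rule without their own peak library. From 12 to 24 h, rescaling gave 5 genes at least 2-fold higher and 12 lower, against 8 and 7, and from 2 to 12 h a pseudocount of 0.1 gave 1 lower gene against 0. The other 57 of 63 alternative values stayed within 1.5 times. None could change sign, since they are counts, shares, or a rise and a fall whose sign the rule fixes. Limits of 5% and 20% for the gap at 48 h, chosen after seeing the data, gave 11 and 12 members and 15 and 21 genes in all. Depth limits the low values, most at 60 h. No paired analysis was possible because the series holds 1 library per time.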
